A study of Mus musculus with 6 samples.

Results

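LC8 is a small dynein light chain encoded by Dynll1 and, in a nearly identical form, by Dynll2. The genes described here encode 10 proteins known to bind it: Bcl2l11, Bmf, Trp53bp1, Nrf1, Pak1, Nek9, Wwc1, Ambra1, Myo5a and Gphn. They were chosen by name and not by a cut on their measured values, though earlier results of these data were known. Every array probe whose target name is 1 of these symbols was taken. These are 10 of 30774 distinct target names on the array. It carried 25 probes for them among 45281, and 18, at least 1 for each gene, were detected on at least 3 of the 6 arrays and were tested. The probes nearest to that limit were those of Bmf (detected on 4 arrays) and Bcl2l11 probe 2360689 (5 arrays), and the 7 that failed it were detected on 0 arrays.

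RNA came from primary mouse embryonic fibroblasts, connective-tissue cells grown from dissociated embryos. They were prepared at embryonic day 12.5 and used after a single passage. The 3 knockout cultures (KO) were Asciz-/- and the 3 wild-type cultures (WT) Asciz+/+, all on a C57BL/6 background and each from its own embryo. Asciz is the older name of Atmin, a zinc-finger transcription factor known to activate Dynll1. The labels do not say how the allele was made, and such cultures hold every adherent cell type of the embryo that grows in serum. Each culture was read on 1 MouseWG-6 bead array, and the number of arrays limits the precision.

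LC8 forms a dimer that grips short linear motifs in its partners and so can pair up disordered chains or hold a partner on a motor. It is a known subunit of cytoplasmic dynein and of myosin Va, and is now seen as a general dimerization hub. Its partners include pro-apoptotic proteins held on the cytoskeleton, factors of DNA break repair and transcription, kinases, and scaffolds of autophagy and of synapses. Motif sequences lie in the proteins and are not shown here, since no protein sequences were used.

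In the knockout cultures the mRNA of Dynll1 fell strongly, while Dynll2, the other gene of the hub, differed by 0.07 (adjusted p = 0.927 by limma). None of the 10 partners passed the test. On the 18 partner probes the knockout minus wild-type difference ran from -0.59 to 0.27 in normalized log2 intensity, with a median of -0.13, against a median of -0.01 over all 18221 tested probes. Of the 18 partner probes, 12 were below 0 and 6 above, and over all tested probes 48.4% were above 0. None passed an adjusted p of 0.05 by limma, where 0.0439% of all tested probes did. At an unadjusted p under 0.05 there were 2, both for Myo5a, against a background of 7.53%. The knockout values lay all below the wild-type values on 4 probes and all above on 0. Over all tested probes such a separation was seen in 14.1%, with KO lower in 7.47% and KO higher in 6.65%. Of these 4, 2 are probes of the same gene, Myo5a, and the others belong to Nek9 and Gphn.

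Markers were used to check the cultures. All 9 fibroblast markers were detected, among them Col1a1 (12.56 ± 0.38 in KO and 12.73 ± 0.15 in WT) and Vim (13.23 ± 0.14 in KO and 13.17 ± 0.05 in WT; normalized log2 intensity, mean ± SD, n = 3 each). The fibroblast marker farthest from 0 was Pdgfra, at 8.56 ± 0.48 in KO and 9.50 ± 0.59 in WT, a difference of -0.94 (unadjusted p = 0.0229, adjusted p = 0.629 by limma) with overlap. Of 7 skeletal muscle markers 6 were tested and 5 were above 0, with culture means of 8.05 to 8.54 in KO and 7.40 to 8.02 in WT. Of 7 macrophage markers 4 were tested and all were below 0, with culture means of 5.70 to 6.05 in KO and 6.60 to 7.36 in WT, while Csf1r, Ptprc and Emr1 were not detected on 3 arrays. Among the tested macrophage markers, C1qb was detected on 1 KO and 3 WT arrays. Its WT arrays alone met the limit, so a lower KO value is favoured by its selection. C1qb is included in these means and in the counts that follow. Neither list had a member past the adjusted threshold by limma, against 0.0439% of all tested probes. Each had 4 members with an unadjusted p under 0.05, against 7.53% of all tested probes. Of the epithelial, endothelial and neural markers 3, 1 and 3 were tested, and all were above 0. Among these, Cdh1 (0.35, adjusted p = 0.665 by limma) and Ncam1 (0.51, adjusted p = 0.629) had no overlap, and the rest overlapped. Over all tested probes 6.65% separated with KO higher. WT replicate 1 was the only culture with Xist signal (8.20, against 4.32 to 4.37). It was also the lowest in Y-linked genes (4.86, against 9.25 to 9.58). By these values it alone was female, so sex was not balanced between the genotypes, and its part was not tested. KO replicate 3 had the lowest mean correlation with the other arrays (0.979, against 0.985 to 0.989). Values with KO replicate 3 left out are given beside several partners. In bulk RNA, fewer cells of a type and less RNA per cell cannot be told apart.

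Atmin, the targeted gene, was checked first. Its brightest probe stood at 6.93, 6.95 and 6.47 in KO cultures, against 8.70, 8.87 and 8.77 in WT cultures, with no overlap. It fell by 1.99 on the log2 scale (SE 0.16, adjusted p = 0.00646 by limma), a call lost when any WT culture was left out (adjusted p = 0.0539 to 0.0779). Where the probe lies relative to the altered part of the gene is unknown here, so its remaining signal says nothing of intact transcript. Atmin probe 2510376 stood at -1.95 (adjusted p = 0.00427 by limma). The dim Atmin probe 7330682, detected on 2 KO arrays and 1 WT array, showed no fall (0.11, SE 0.25, adjusted p = 0.937 by limma). Dynll1, 1 of the genes of the hub, is given beside the partners for comparison, and its difference sets no expected size for theirs. The probe named DYNLL1 read 2749.5, 2241 and 1931 intensity units in KO cultures, against 10152, 7979 and 9030 units in WT cultures before normalization. After normalization the difference was -1.89 (SE 0.11, 95% interval -2.15 to -1.64, adjusted p = 0.00182 by limma), or 0.269 times the wild-type level. A second probe, under the older name Dnclc1, had 7.46, 7.76 and 7.75 in KO cultures, against 10.00, 9.83 and 10.08 in WT cultures. By limma it stood at -2.31 (SE 0.14, adjusted p = 0.00182). The lower ends of all 18 partner intervals, from -1.01 to -0.17, lay above -1.89. Dynll2 averaged 8.77 ± 0.14 in KO and 8.70 ± 0.17 in WT (SD, n = 3 each). It differed by 0.07 (SE 0.14, adjusted p = 0.927), and by -0.11 with all arrays brought to the same median. That scaling moved the median of all tested probes to -0.14.

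**Figure D1:**
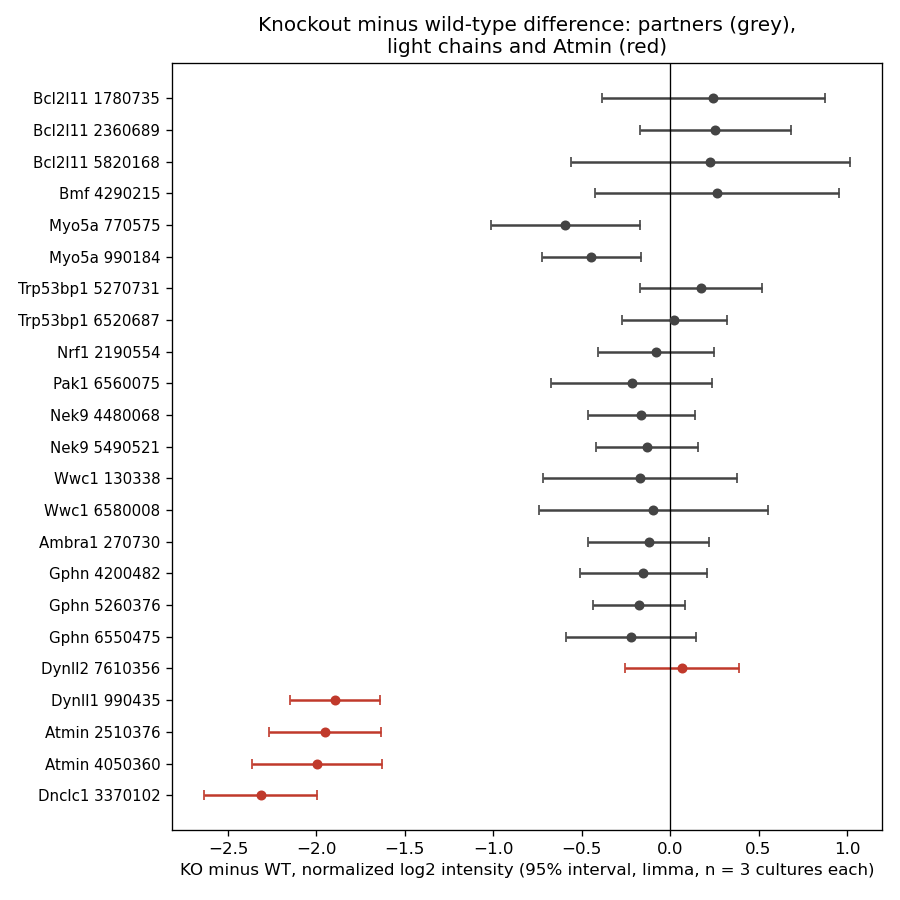
Knockout minus wild-type difference in normalized log2 intensity, with 95% intervals from limma, for the 18 tested partner probes (grey) and for the probes of the light chains and Atmin detected on all 6 arrays (red; Dnclc1 is an older name of Dynll1). The partner estimates lie between -0.59 and 0.27, and the interval of no partner reaches the Dynll1 estimate of -1.89.

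Bcl2l11 and Bmf encode the BH3-only proteins Bim and Bmf, which trigger apoptosis by binding members of the BCL2 family. Bim is known to be held by LC8 on the dynein complex and Bmf, through the Dynll2 product, on myosin V. Bmf and 2 of the 3 tested Bcl2l11 probes were near the limit of detection in these fibroblasts. In the main fit the 4 tested probes of both genes gave the 4 highest partner differences, 0.23 to 0.27, none of them past the test. That ranking changed without background correction, where Trp53bp1 probe 5270731 stood at 0.111. Bcl2l11 probes 1780735 and 2360689 were then at 0.109 and 0.087, Bmf at 0.102 and Bcl2l11 probe 5820168 at 0.171.

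The brightest of 3 tested BCL2L11 probes (5820168) stood at 6.69, 7.22 and 8.10 in KO cultures, against 6.74, 7.38 and 7.20 in WT cultures (normalized log2 intensity, replicates 1 to 3). KO replicate 3 was the highest of the 6 cultures, and the rest of the KO values lay within or just below the WT range. The difference was 0.23 (SE 0.34, 95% interval -0.56 to 1.02, adjusted p = 0.901), and it was -0.15 without KO replicate 3.

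A dimmer Bcl2l11 probe (1780735) gave 5.14, 5.22 and 6.22 in KO cultures and 5.23, 5.28 and 5.35 in WT cultures. Its difference of 0.24 (SE 0.27, adjusted p = 0.857) again came from KO replicate 3, and was -0.11 without that culture. The last of the 3 (2360689) gave 5.01, 5.09 and 5.56 in KO cultures and 4.73, 4.998 and 5.17 in WT cultures, and was not detected in WT replicate 1. Its difference was 0.25 (SE 0.18, adjusted p = 0.773), and 0.09 without KO replicate 3. All 3 probes were thus highest in the same culture, and their groups overlapped.

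Bmf, measured by the single probe named BMF, had 4.80, 5.26 and 5.91 in KO cultures, against 4.66, 5.43 and 5.08 in WT cultures. It was detected on 2 KO and 2 WT arrays, and replicate 1 of each genotype fell short of detection. The difference was 0.27 (SE 0.30, 95% interval -0.42 to 0.96, adjusted p = 0.855), and -0.02 without KO replicate 3, again the highest culture. Before normalization Bmf gave 102 to 118 units in KO cultures and 102 to 109 units in WT cultures, beside a lowest detected signal of 92.7 to 102.3 units on KO arrays and 94.8 to 106.2 units on WT arrays.

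**Figure D2:**
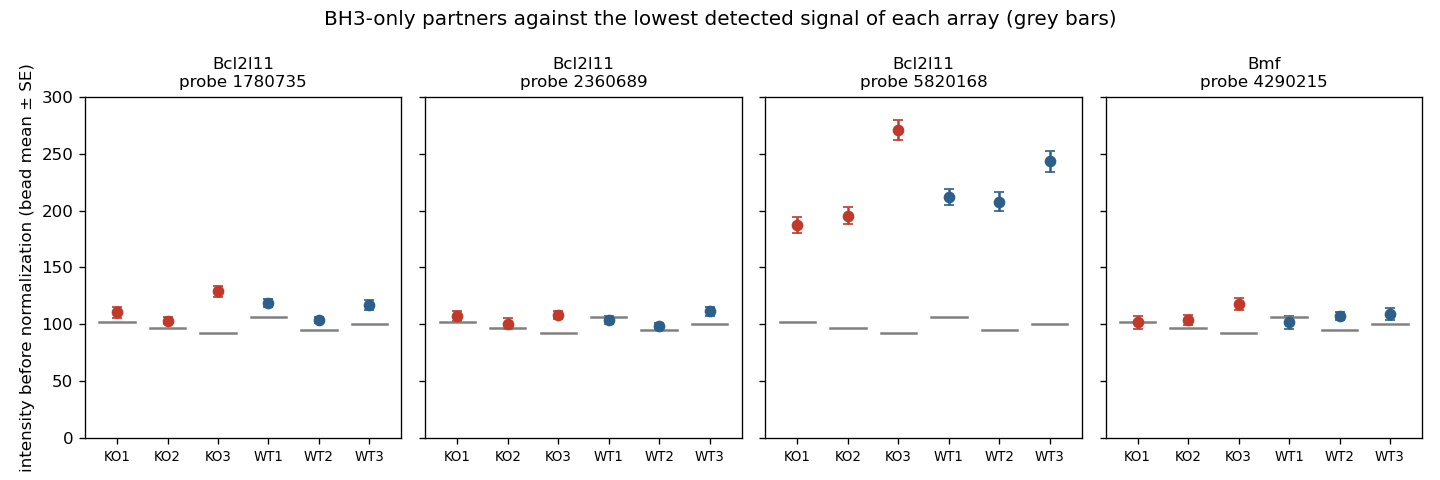
Intensity before normalization on each array (KO1 to KO3 left, WT1 to WT3 right) for the 3 tested Bcl2l11 probes and the Bmf probe. Points are means over beads with their SE, which covers error within an array only, and grey bars mark the lowest intensity called detected on that array; probe 5820168 stands farthest above these bars, and KO replicate 3 (271 units) is its highest.

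Myo5a encodes the heavy chain of myosin Va, the actin motor that carries melanosomes, vesicles and RNA and has LC8 as a light chain in its tail. It showed the largest differences among the partners. On both of its detected probes every KO culture lay below every WT culture, as on 7.47% of all tested probes. The differences between group means were about -0.45 and -0.59, and neither passed the adjusted threshold.

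The brighter of the MYO5A probes (990184) stood at 8.0051, 8.0479 and 8.0002 in KO cultures, against 8.3578, 8.4122 and 8.6198 in WT cultures. The KO values were close together and the gap to the lowest WT culture was wider than their range. The difference was -0.45 (SE 0.12, 95% interval -0.72 to -0.17, unadjusted p = 0.00633, adjusted p = 0.496 by limma), a level 0.734 times that of WT with an interval of 0.605 to 0.891.

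The second probe (770575) gave 7.55, 7.38 and 6.86 in KO cultures, against 7.84, 7.85 and 7.88 in WT cultures. Here the WT values were close together and KO replicate 3 was lowest. The difference was -0.59 (SE 0.18, 95% interval -1.01 to -0.17, unadjusted p = 0.0120, adjusted p = 0.578 by limma), or 0.663 times the WT level, with an interval of 0.495 to 0.888.

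Without KO replicate 3 the differences were -0.44 and -0.39, and without KO replicate 3 and WT replicate 1 they were -0.49 and -0.40, so both stayed below 0. The smallest adjusted p that either reached under any alternative was 0.283, with arrays weighted by their precision. The remaining 3 Myo5a probes were not detected on any array. The culture means of the muscle and macrophage markers given above did not overlap between KO and WT cultures either, although no marker passed, and their part in the Myo5a difference was not tested. The macrophage means include C1qb, whose selection favours a lower KO value.

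Trp53bp1 and Nrf1 encode nuclear partners. Trp53bp1 makes 53BP1, which gathers at DNA double-strand breaks and favours their repair by end joining, and whose oligomerization LC8 is known to aid. The bright TRP53BP1 probe (6520687) had 9.52, 9.69 and 9.82 in KO cultures, against 9.57, 9.75 and 9.64 in WT cultures. The groups overlapped throughout, and the difference of 0.02 (SE 0.13, 95% interval -0.27 to 0.32, adjusted p = 0.979) was the smallest of all partner probes.

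A dimmer Trp53bp1 probe (5270731) had 7.05, 6.79 and 7.25 in KO cultures and 6.81, 6.77 and 6.98 in WT cultures. It differed by 0.17 (SE 0.15, 95% interval -0.17 to 0.52, adjusted p = 0.813), within the spread of the cultures, and by 0.064 without KO replicate 3. With arrays scaled to a common median the bright and the dim probe stood at -0.14 and -0.0076, beside the shift of -0.14 over all tested probes.

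Nrf1, the nuclear respiratory factor that drives genes of mitochondrial function, was detected by 1 of its 2 probes. The detected NRF1 probe stood at 8.65, 8.63 and 8.34 in KO cultures, against 8.66, 8.75 and 8.45 in WT cultures, with replicate 3 lowest in both genotypes. The difference was -0.08 (SE 0.14, 95% interval -0.41 to 0.25, adjusted p = 0.919). The symbol Nrf1 has also been used for Nfe2l1, and the deposited table gives no accession, so the identity of this probe rests on the target name.

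Pak1 and Nek9 are protein kinases. Pak1 acts downstream of Rac and Cdc42 on the actin cytoskeleton and is known to bind and phosphorylate LC8. The PAK1 probe had 6.76, 7.49 and 6.86 in KO cultures, against 7.18, 7.26 and 7.32 in WT cultures. The WT cultures were close together, while KO replicate 2 lay above all of them and the other KO cultures below. The difference was -0.22 (SE 0.20, 95% interval -0.67 to 0.24, adjusted p = 0.827), and 0.02 with arrays weighted by their precision. It was -0.44 without KO replicate 2 and -0.078 without KO replicate 1.

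Nek9 is a mitotic kinase that activates Nek6 and Nek7, and LC8 binding promotes its self-association. The bright NEK9 probe (5490521) had 9.87, 10.08 and 9.79 in KO cultures, against 10.00, 10.05 and 10.08 in WT cultures, a difference of -0.13 (SE 0.12, 95% interval -0.42 to 0.16, adjusted p = 0.832). The other (4480068) had 7.42, 7.40 and 7.10 in KO cultures and 7.52, 7.43 and 7.47 in WT cultures. On this probe the groups did not overlap, by a gap smaller than the spread of the KO cultures, and the difference was -0.16 (SE 0.13, adjusted p = 0.798). Without KO replicate 3 the bright and the dim probe stood at -0.067 and -0.059.

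Wwc1, Ambra1 and Gphn encode scaffolds. Wwc1 makes Kibra, an upstream protein of the Hippo pathway. The WWC1 probe 130338 had 6.98, 6.54 and 5.99 in KO cultures, against 6.76, 6.51 and 6.74 in WT cultures. The KO cultures reached both above and below the WT range, and the difference was -0.17 (SE 0.24, 95% interval -0.72 to 0.38, adjusted p = 0.893). Probe 6580008 had 6.03, 5.25 and 5.16 in KO cultures and 5.73, 5.11 and 5.88 in WT cultures, a difference of -0.09 (SE 0.28, adjusted p = 0.955). Without KO replicate 3, the lowest KO culture on both, the differences were 0.09 and 0.07. Before normalization probe 6580008 read 104.1 and 99.7 units in KO replicates 2 and 3 and 100.5 units in WT replicate 2. The lowest detected signals of those arrays were 96.8, 92.7 and 94.8 units, so its level there was near the limit of detection.

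Ambra1 makes a regulator of autophagy that ties the Beclin 1 complex to dynein through LC8. The AMBRA1 probe had 7.86, 7.96 and 7.66 in KO cultures, against 7.72, 8.08 and 8.05 in WT cultures, a difference of -0.12 (SE 0.15, 95% interval -0.46 to 0.22, adjusted p = 0.870). The groups overlapped, and the difference was -0.036 without KO replicate 3 and -0.24 without WT replicate 1. A probe under the clone name D030051N19RIK, which the reference gene table assigns to Ambra1, had 7.34, 7.24 and 7.22 in KO cultures and 7.35, 7.61 and 7.43 in WT cultures. Its groups did not overlap, by a gap of less than their spread, and it differed by -0.19 (SE 0.12, adjusted p = 0.742).

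Gphn makes gephyrin, which anchors glycine and GABA-A receptors at inhibitory synapses and catalyses the last steps of molybdenum cofactor synthesis in all tissues. All 3 GPHN probes were detected on every array and all 3 differences were below 0. Probe 6550475 had 6.99, 7.01 and 7.29 in KO cultures, against 7.27, 7.57 and 7.11 in WT cultures, a difference of -0.22 (SE 0.16, adjusted p = 0.769). Probe 5260376 had 6.92, 6.89 and 6.90 in KO cultures and 7.07, 7.17 and 6.997 in WT cultures, a difference of -0.18 (SE 0.11, 95% interval -0.43 to 0.08, adjusted p = 0.747). On that probe the groups did not overlap, and its KO cultures were the least spread of any partner probe (SD 0.02). Probe 4200482 had 6.66, 6.39 and 6.92 in KO cultures and 6.73, 6.88 and 6.82 in WT cultures, a difference of -0.15 (SE 0.15, adjusted p = 0.845), with overlap, and -0.018 without KO replicate 2. Probe 2140497, whose clone name the reference gene table assigns to Gphn, was detected on 1 KO and 2 WT arrays. It had 4.71, 4.71 and 4.86 in KO cultures and 4.71, 4.96 and 4.78 in WT cultures, a difference of -0.056 (SE 0.12, adjusted p = 0.933) between overlapping groups.

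**Figure D3:**
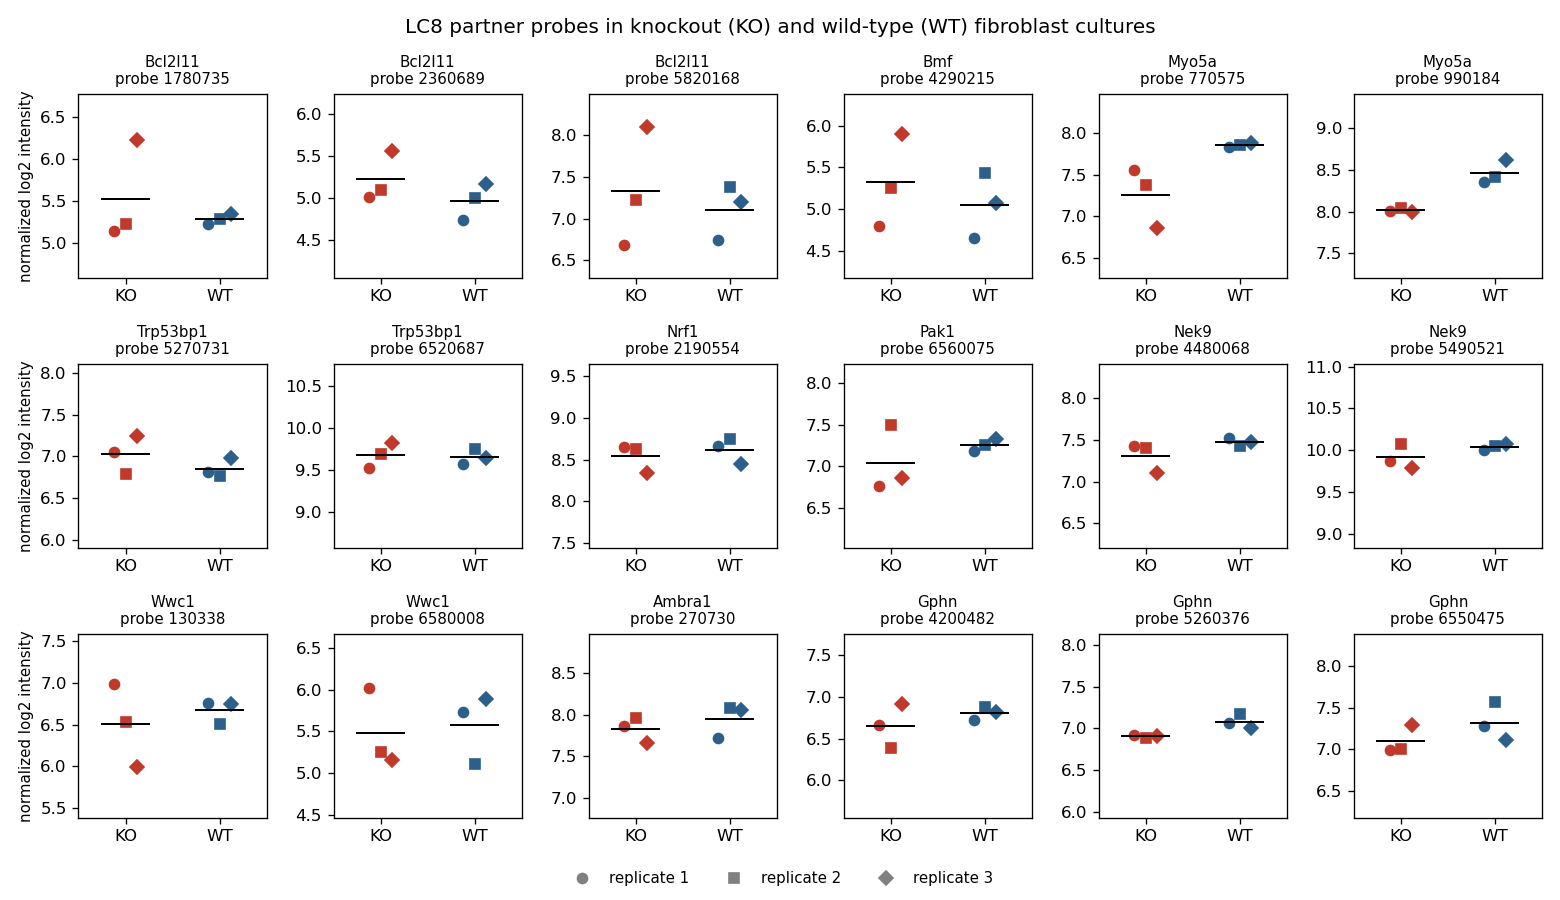
Normalized log2 intensity of the 18 tested partner probes in each culture, KO left and WT right, with a line at the group mean (n = 3 each) and a marker shape for the replicate number; every panel spans the same height on the log2 axis, and levels of different probes are not comparable. The groups separate on both Myo5a probes and, by small gaps, on Nek9 probe 4480068 and Gphn probe 5260376, while KO replicate 3 is highest on all Bcl2l11 and Bmf panels.

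How finely each partner was measured differed between genes. The SE over beads within an array was 0.05 to 0.08 on the log2 scale for the 18 probes, each read on 23 to 73 beads. The SD between cultures of a genotype was 0.06 to 0.56 with a median of 0.20. The bead SE refers to intensities before background correction and the SD to values after it, so their scales differ. Which is larger therefore cannot be said where they are close, as on Gphn probe 5260376 (bead SE 0.058, SD 0.063). Widest was the 95% interval of Bcl2l11 probe 5820168, 1.58 log2 units across, followed by those of Bmf, Wwc1 probe 6580008 and Bcl2l11 probe 1780735. The narrowest, 0.52 across, was that of Gphn probe 5260376. On 16 of the 18 probes the interval lay within 1 log2 unit of 0, and the exceptions were Myo5a probe 770575 (down to -1.01) and Bcl2l11 probe 5820168 (up to 1.02).

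The genes that work beside the partners showed the same absence of calls. In 10 lists with 74 genes, 56 were tested, 0 passed by limma against 0.0439% of all tested probes, and 4, Rif1 among them, had an unadjusted p under 0.05, against 7.53% of all tested probes. Their differences ran from -0.52 to 0.57, with 35 below 0, 21 above and a median of -0.04. The lowest was that of Rif1, which entered the test through its WT arrays alone. Each gene is represented by its brightest detected probe. Groups did not overlap on Bax and Ulk1, with KO higher, and on Eml3, Sav1 and Rif1, with KO lower. Over all tested probes 6.65% separated with KO higher and 7.47% with KO lower.

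Among 15 other proteins known to bind LC8, 10 were tested, 8 were below 0 and the median was -0.20. The 2 smallest p belonged to Fam83d, which recruits a kinesin to the spindle (-0.34, SE 0.15, adjusted p = 0.666), and Eml3, a microtubule-binding protein (-0.29, SE 0.13, adjusted p = 0.671). The dynein intermediate chain Dync1i2, through which LC8 sits on the motor, was at -0.07 (SE 0.12). The neuronal partners Nos1, Dlgap1 and Bsn, and Esr1 and Bcas1, were not detected on 3 arrays.

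Of the other BH3-only genes 4 were tested, 2 in each direction, with a median of 0.02. Pmaip1, which encodes the p53 target Noxa, stood at 9.84 ± 0.20 in KO and 9.28 ± 0.43 in WT (SD, n = 3 each). It differed by 0.57 (SE 0.22, adjusted p = 0.644), and Bid at -0.08 (SE 0.15). Of 6 tested genes for the BCL2 proteins that BH3-only proteins bind, 4 were above 0, with a median of 0.08. The effector Bax (0.26, SE 0.11, adjusted p = 0.656) was higher in every KO culture than in any WT culture, as were 6.65% of all tested probes. The survival protein Mcl1 was at -0.23 (SE 0.14).

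Around Trp53bp1, 6 break-signalling genes were tested, with 3 above 0, 3 below and a median of -0.0016. Rif1, which acts with 53BP1 in end joining, was not well above background on any KO array, with measured means of 4.56 in KO and 5.08 in WT. It entered the test through its 3 WT arrays alone, so that a lower KO value is built into its selection. Neither the gap between these means nor its p is read as a difference. The ubiquitin ligase Rnf168 was at 0.18 (SE 0.13). Of 7 partners and mitochondrial targets of Nrf1, 6 were below 0 with a median of -0.10, and the smallest p were those of the mitochondrial RNA polymerase Polrmt (-0.20, SE 0.13) and the mitochondrial DNA-binding factor Tfam (-0.10, SE 0.11).

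Beside the kinases, all 5 tested genes lay below 0 (median -0.09), and the smallest p were those of Pak2 (-0.27, SE 0.14) and Pak3 (-0.32, SE 0.17); Nek6 and Nek7 were not detected on 3 arrays. In the Hippo pathway 3 of 5 tested genes were below 0, with a median of -0.10. The scaffold Sav1 was at -0.33 (SE 0.13, adjusted p = 0.648) and the transcriptional coactivator Yap1 at 0.26 (SE 0.13, adjusted p = 0.687). In autophagy initiation 3 of 6 tested genes were above 0, with a median of 0.01, Ulk1 at 0.20 (SE 0.12) and the Vps34 subunit Pik3r4 at -0.21 (SE 0.17).

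Of the myosin V relatives and Rab adaptors of Myo5a 4 were tested, 2 in each direction, with a median of 0.06. Myo5c was at -0.33 (SE 0.30, adjusted p = 0.824) and Rab27a, which links melanosomes to myosin Va, at 0.15 (SE 0.17), while Myo5b was not detected on 3 arrays. The 3 genes that make the molybdenum cofactor precursor before gephyrin were all tested, with a median of 0.03, Mocs1 at -0.13 (SE 0.12) and Mocs2 at 0.13 (SE 0.12).

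**Figure D4:**
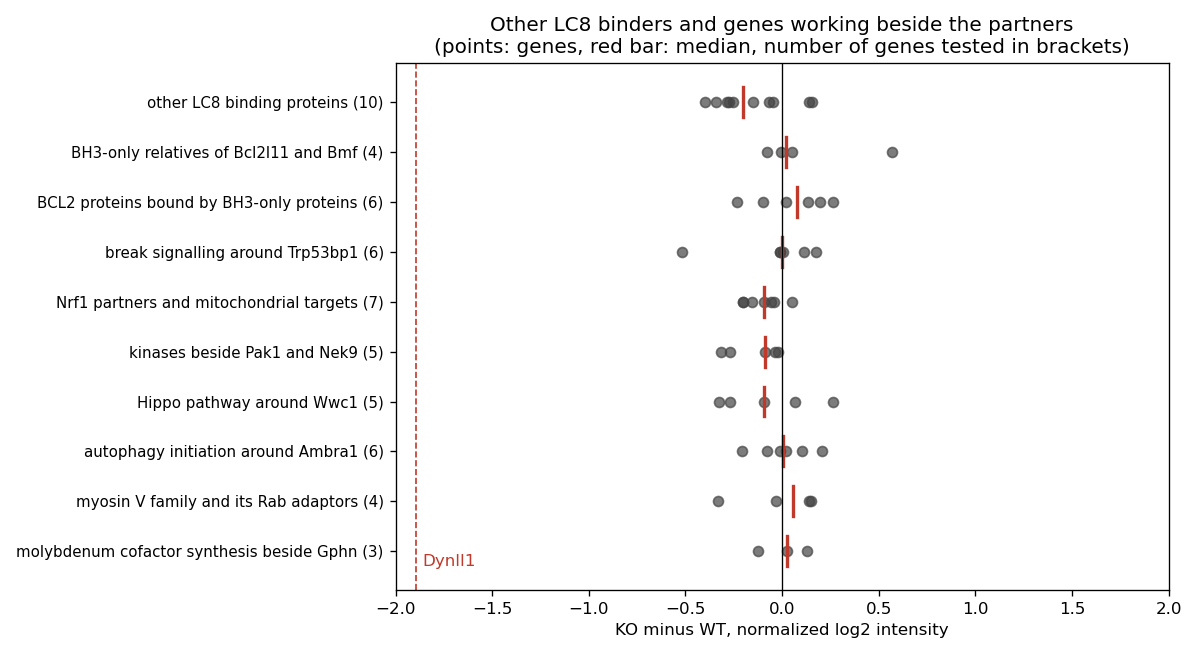
Knockout minus wild-type difference in normalized log2 intensity for the 56 tested genes of the 10 lists (points), with the list median as a red bar and the number of genes tested in brackets; the dashed line marks Dynll1 at -1.89. All points lie between -0.52 (Rif1, a fitted value of a gene not above background in KO) and 0.57 (Pmaip1).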

How the data were processed

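The members and lists were chosen with earlier results of these data known. The authors deposited 3 tables. The intensity table, per the file headers, holds the mean bead intensity per probe with its SD and the count of beads, exported by GenomeStudio version 1.6.0 without normalization. The detection value deposited with it is a fraction in which 1 means detected; 24 of its columns were not used. The submitters' processing notes name lumi for the deposited normalized table, which was treated as a score, since its transformation is not stated. Its array medians were 7.13 and its slope against log2 intensity was 0.964 between 9 and 11 and 0.552 between 6 and 7, so levels are uncentred and the scale of dim probes stays unknown. The deposited value table, read as log2, repeats its 45281 sets of values.

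Intensities were background-corrected from the detection p, quantile-normalized and logged with the function neqc (limma version 3.58.1, run in R version 4.3.3), with an offset of 16. Probes with a detection of at least 0.95 on at least 3 arrays, 18221, entered 1 fit with lmFit and eBayes, KO minus WT, two-sided, and p-values were adjusted over all of them (Benjamini-Hochberg, threshold 0.05). Adjusted p are from that fit. Medians of intensity were 88.7 to 97.9 units, and 17580 to 18794 probes per array were detected. The procedure was also run on simulated data, whose outcome is not given here and is not used to read the results. Names of list genes were matched through a table of assembly GRCm38.p6 (16307 of 18221 tested probes matched). Genes named are all members, the light chains, Atmin and, per list, the 2 with the smallest p; Dync1i2, the markers named and genes named as not detected were added after their values were seen. Deviations from the group mean correlated at 0.22, -0.19 and -0.21 between same-numbered KO and WT cultures, and at -0.32 to 0.40 between others. Deviations from a mean of so few cultures depend on each other, so these values cannot decide whether the numbers pair the cultures. The main fit left the numbers out. Alternatives covered background, normalization, filter, probe choice, variance model, replicate block and arrays left out.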

Additional observations from a re-analysis of the deposited data

How the results depend on the processing

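No partner probe passed under any of the 17 alternative fits, at an adjusted p of 0.10, or with the probes under other names added; over 296 alternative values of the 18 probes the smallest adjusted p was 0.283, and 275 kept their direction. Leaving out 1 array moved Bcl2l11 probe 1780735 between -0.11 and 0.44, Bcl2l11 probe 5820168 between -0.15 and 0.55, Bmf between -0.025 and 0.53, Nrf1 between -0.16 and 0.018, Trp53bp1 probe 6520687 between -0.048 and 0.10, Wwc1 probe 130338 between -0.41 and 0.086 and Wwc1 probe 6580008 between -0.37 and 0.066. Without WT replicate 1 and KO replicate 3 together, an alternative chosen after seeing the data, sign changes were seen for Bcl2l11 (-0.14, -0.031 and -0.34 for probes 1780735, 2360689 and 5820168), Bmf (-0.22), Nrf1 (0.037), Trp53bp1 probe 6520687 (-0.089), Wwc1 (0.13 and 0.14 for probes 130338 and 6580008) and Dynll2 (-0.011). Scaling to a common median, which moved the median of all tested probes to -0.14 and that of the partners to -0.29, put Trp53bp1 at -0.14 and -0.0076 and Dynll2 at -0.11. Array weights put Pak1 at 0.023 and the dim Atmin probe 7330682 at -0.0021, from 0.11. The cause of these changes was not tested.

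Both Dynll1 probes passed under each of the 17 alternatives, with differences of -1.95 to -1.85 for probe 990435 and -2.48 to -1.77 for Dnclc1 probe 3370102. Leaving out 1 array moved Dynll2 between -0.011 and 0.16, Atmin probe 7330682 between -0.089 and 0.32, Atmin probe 2510376 between -2.06 and -1.88 and Atmin probe 4050360 between -2.08 and -1.84. Both bright Atmin probes lost their call when WT replicate 1 (adjusted p = 0.0601 and 0.0603) or WT replicate 3 (0.0653 and 0.0779) was left out, and probe 4050360 also without WT replicate 2 (0.0539) and with no filter on dim probes (-1.99, adjusted p = 0.0579). The 8 probes called in all became 4 without background correction, without the filter and in the submitters' values, and 2 to 7 with 1 array left out: 2 without WT replicate 1 or WT replicate 3, and 5 without WT replicate 2. With the replicate number as a block 6 were called and no partner, the Myo5a probes having adjusted p of 0.672 and 0.667 in place of 0.496 and 0.578. Signal over background limits Bmf, Bcl2l11 probes 1780735 and 2360689 and Wwc1 probe 6580008 most.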
